A study of Mus musculus with 12 samples.

Results

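The measurement described here is the effect of genotype on how RNA divides between the neurite and cell body (soma) compartments of sensory neuron cultures. For each gene it is a difference of differences: the log2 change from soma to neurites in GAR+/- (het) cultures minus the same change in GAR+/+ (WT) cultures, called the interaction below. All 12 libraries of the series enter it, 3 for each of WT soma, WT neurites, het soma and het neurites. Genes were taken from the named transcripts with counts in both compartments: 31420 such transcripts, out of 35313 in the soma data and 32838 in the neurite data, gave 16617 genes, and 15990 of these had counts high enough to test. Both genotypes were on the C57B6 background. Each culture was made from the dorsal root ganglia (DRG) of 1 adult mouse and grown for 3 days. No drug or injury is named in the labels. The cells grew on a porous insert with 1 µm pores, meant to let neurites cross and to hold back cell bodies. Libraries of both compartments also held RNA of non-neuronal marker genes, given below, so the ratio is not one of neurons alone. The labels give GAR as the allele name, and the series title refers to nucleolin. They do not say which neurite and soma libraries came from the same culture. A neurite to soma ratio was also formed within each equally numbered pair of libraries, 3 pairs per genotype.

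Nucleolin is an abundant RNA-binding protein of the nucleolus that is also found in the cytoplasm and along axons. Its carboxy-terminal glycine- and arginine-rich (GAR) domain contributes to binding of RNA and of protein partners, among them the kinesin-1 motor that carries cargo away from the cell body. In sensory neurons nucleolin has been described as a carrier of the mRNAs for importin beta 1 (Kpnb1) and for the growth kinase mTOR (Mtor) into axons, where their local translation takes part in the sensing of axon length. A change in such transport could appear as a change in the ratio of neurite to soma RNA, even where the total amount of an RNA in the culture stays the same. RNA of non-neuronal cells also enters this ratio.

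Library totals ran from 14965973 to 32434916 counts, at which a gene with 0 counts could still have a level of up to between 0.0931 and 0.202 CPM (counts scaled to the library total), by the limit of 3 counts. These limits cover counting error only. The labels name 1 mouse per culture but do not tie a number to a mouse, so p-values measure the spread between these libraries. The Y-linked genes Ddx3y, Kdm5d, Uty and Eif2s3y had counts in all 12 libraries, with summed levels of 240.6 to 355.5 CPM. A library of WT neurites, number 2, stood apart from the other 11, with a score of 55.8 on the second principal component where the others ran from -21.4 to 9.90. The library het soma 3 stood apart in a few transcripts: Lars2, a mitochondrial leucyl-tRNA synthetase gene, was at 2465 CPM there against 30.3 to 220.3 CPM in the other 5 soma libraries. Lars2 was singled out after its values were seen. The direction of several results below depended on these libraries, and their values without them are given there.

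No gene had a neurite to soma ratio that differed between het and WT once p-values were adjusted: 0 of 15990 genes (0%) passed in edgeR's quasi-likelihood test with Benjamini-Hochberg adjustment, and the smallest adjusted p was 0.9998. At an unadjusted p under 0.05 there were 202 genes (1.26%), of which 97 (0.607%) had a higher ratio in het and 105 (0.657%) a lower one. DESeq2 also called 0 genes, with 190 at an unadjusted p under 0.05, and limma voom called 0 with 223. In 487 genes (3.05%) the 3 het pair ratios all lay above the 3 WT pair ratios, and in 530 genes (3.31%) all lay below. If no ratio differed, a share of 0.1 would have pairs apart, both directions together. A share of 0.05 would reach the unadjusted threshold. The shares found were lower than these. The median interaction over all genes was -0.02, and the interquartile range was -0.16 to 0.13 on the log2 scale.

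How large a genotype effect these libraries could hide depends on the level of the gene. Among the 2296 genes with a mean of 100 CPM or more, the median standard error (SE) of the interaction was 0.16 and the median half-width of its 95% interval was 0.34, a 1.26-fold change of the ratio. In 2229 of them (97.1%) the whole interval lay within 2-fold of no difference, and in 1882 (82.0%) within 1.5-fold. Among the 5476 genes from 10 to 100 CPM, 5181 intervals (94.6%) lay within 2-fold and 3449 (63.0%) within 1.5-fold. The share within 2-fold dropped to 51.4% (2908 of 5663 genes) from 1 to 10 CPM, and to 4 of 2555 genes under 1 CPM, so below 1 CPM, where the median half-width was 1.60 on the log2 scale, nearly all intervals reached beyond 2-fold. Over all levels 10322 genes (64.6%) had an interval within 2-fold.

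**Figure D1:**
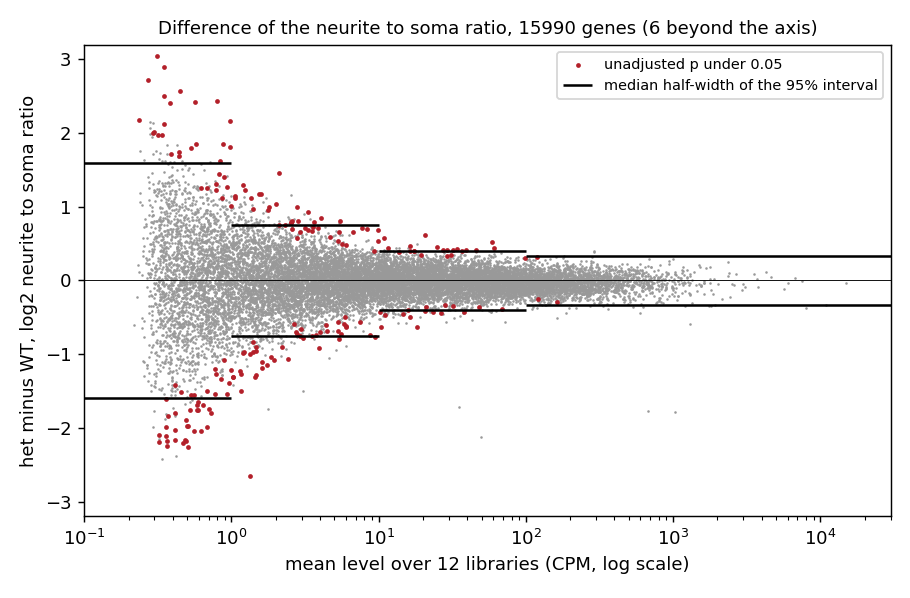
Interaction (het minus WT, log2 neurite to soma ratio; vertical axis) of each of 15990 genes against its mean CPM over 12 libraries (horizontal axis, log scale), with genes of unadjusted p under 0.05 in red and black lines at the median half-width of the 95% interval in each range of levels. The cloud narrows from a half-width of 1.60 under 1 CPM to 0.34 at 100 CPM and above, it is centred near 0, and 6 genes lie beyond the axis.

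Nucleolin mRNA itself (Ncl, ENSMUSG00000026234.12, chr1:86344719-86359400 on GRCm38, minus strand) was more abundant in neurites than in soma in every pair of both genotypes. Its levels in WT libraries 1, 2 and 3 were 217.5, 237.3 and 239.4 CPM in soma and 463.3, 414.8 and 321.5 CPM in neurites. In het they were 250.7, 257.9 and 290.2 CPM in soma and 425.9, 382.2 and 332.2 CPM in neurites. The log2 pair ratios were 1.09, 0.81 and 0.43 in WT and 0.76, 0.57 and 0.20 in het, so the genotypes overlapped. The fitted ratio was 1.73-fold in WT and 1.43-fold in het, and the interaction of -0.28 ± 0.18 (SE) had a 95% interval from -0.66 to 0.11 (unadjusted p = 0.153, edgeR quasi-likelihood). The gene counts do not separate the GAR allele from the WT allele, so they check no genotype label. Counted small RNAs (Snora75 and Gm24148) lie within Ncl on the same strand, and reads from its introns could be assigned to either.

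Kpnb1 (ENSMUSG00000001440.5, chr11:97159714-97187881, minus strand) encodes importin beta 1, the nuclear import receptor that takes part in retrograde signalling from injured axons. In WT libraries 1 to 3 its levels were 979, 948.6 and 986.2 CPM in soma and 1375, 1122 and 1073 CPM in neurites. In het they were 887.4, 830.0 and 888.5 CPM in soma and 1058, 903.3 and 946.9 CPM in neurites, so each het library lay below each WT library of its compartment. The pair ratios were 0.49, 0.24 and 0.12 in WT and 0.25, 0.12 and 0.09 in het, on the log2 scale. These overlapped, and the interaction was -0.13 ± 0.15 with a 95% interval from -0.46 to 0.19 (unadjusted p = 0.394). The het over WT difference was -0.16 ± 0.11 in soma and -0.30 ± 0.11 in neurites, so both compartments leaned the same way.

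Mtor (ENSMUSG00000028991.15, chr4:148448611-148557683, plus strand) encodes the kinase at the centre of growth and translation control. WT soma had 276.1, 315.2 and 277.1 CPM and WT neurites 232.0, 281.1 and 255.5 CPM. Het soma had 280.0, 305.5 and 310.1 CPM and het neurites 249.1, 277.0 and 228.8 CPM. The pair ratios were -0.25, -0.17 and -0.12 in WT and -0.17, -0.14 and -0.44 in het: slightly lower in neurites than in soma in all 6 pairs, with the genotypes overlapping. Its interaction was -0.07 ± 0.15, with a 95% interval from -0.38 to 0.24 (unadjusted p = 0.64). Without the libraries WT neurites 2 and het soma 3 the Mtor interaction was 0.04. For Ncl, Kpnb1 and Mtor the intervals leave room for a ratio up to 1.58-fold, 1.38-fold and 1.30-fold lower in het, respectively.

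The other mRNAs listed as bound by nucleolin showed ratios of similar size in both genotypes. That list has 9 members, with Kpnb1 and Mtor among them. The 9 interactions ran from -0.21 to 0.09, and 7 were negative and 2 positive, beside 53.2% negative among all genes. The median was -0.08 against -0.02 over all genes (-0.14 to -0.02 with 1 library left out). Bcl2, the anti-apoptotic regulator, was the member with the smallest p. It was at 133, 135 and 134 CPM in WT soma and 207, 210 and 180 CPM in WT neurites. In het it was at 121, 121 and 122 CPM in soma and 171, 151 and 147 CPM in neurites. Its pair ratios of 0.64, 0.64 and 0.43 in WT overlapped those of 0.50, 0.32 and 0.27 in het, with an interaction of -0.21 ± 0.13 (unadjusted p = 0.123). App, the amyloid precursor, was at -0.19 ± 0.22 and the survival kinase gene Akt1 at -0.12 ± 0.13. The cyclin gene Ccni was at 0.09 ± 0.21, the damage-response genes Gadd45a and Trp53 were at -0.01 ± 0.25 and 0.08 ± 0.30, and Bcl2l1 was at -0.08 ± 0.25. In all 9 the 95% interval included 0 and lay within 2-fold.

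The kinesin-1 chains and the nucleolar partners of nucleolin had interactions near 0, from 0.00 to 0.14 in 8 of 8 members. Of the motor heavy chains, Kif5a was at 0.06 ± 0.22, Kif5b at 0.04 ± 0.20 and Kif5c at 0.02 ± 0.23. Kif5b mRNA was itself more abundant in neurites, with log2 ratios of 0.48 in WT and 0.52 in het. The light chains Klc1, Klc2 and Klc4 had interactions of 0.00 ± 0.20, 0.14 ± 0.19 and 0.06 ± 0.16. Nucleophosmin (Npm1) and fibrillarin (Fbl), both nucleolar proteins, were at 0.02 ± 0.28 and 0.02 ± 0.27. All 8 intervals included 0 and stayed within 2-fold. With 1 library left out the list median ran from -0.04 to 0.22.

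Localization itself was detected. For the average of both genotypes, 1950 of 15990 genes (12.2%) differed between neurites and soma at an adjusted p under 0.05 (edgeR quasi-likelihood, Benjamini-Hochberg), 1172 (7.33%) higher and 778 (4.87%) lower in neurites. With upper-quartile scaling in place of the trimmed mean of M-values (TMM) the split was 850 higher and 1196 lower. This average uses both genotypes with equal weight and does not use their difference. If the ratios are noisier in 1 genotype, choosing genes by it can still favour a direction of the interaction. Each of the 1950 genes had the same direction in WT and in het. Choosing genes by a significant average nearly fixes this in advance, so it is no separate sign of agreement. Across the 7772 genes of at least 10 CPM the fitted log2 ratios in WT and het had a Pearson r of 0.77 and a Spearman rho of 0.83. These are correlations across genes, which share libraries and are not independent replicates. The slope of het on WT was 0.63 and that of WT on het was 0.95, and the ratios spread more in WT (SD 0.31) than in het (SD 0.25).

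**Figure D2:**
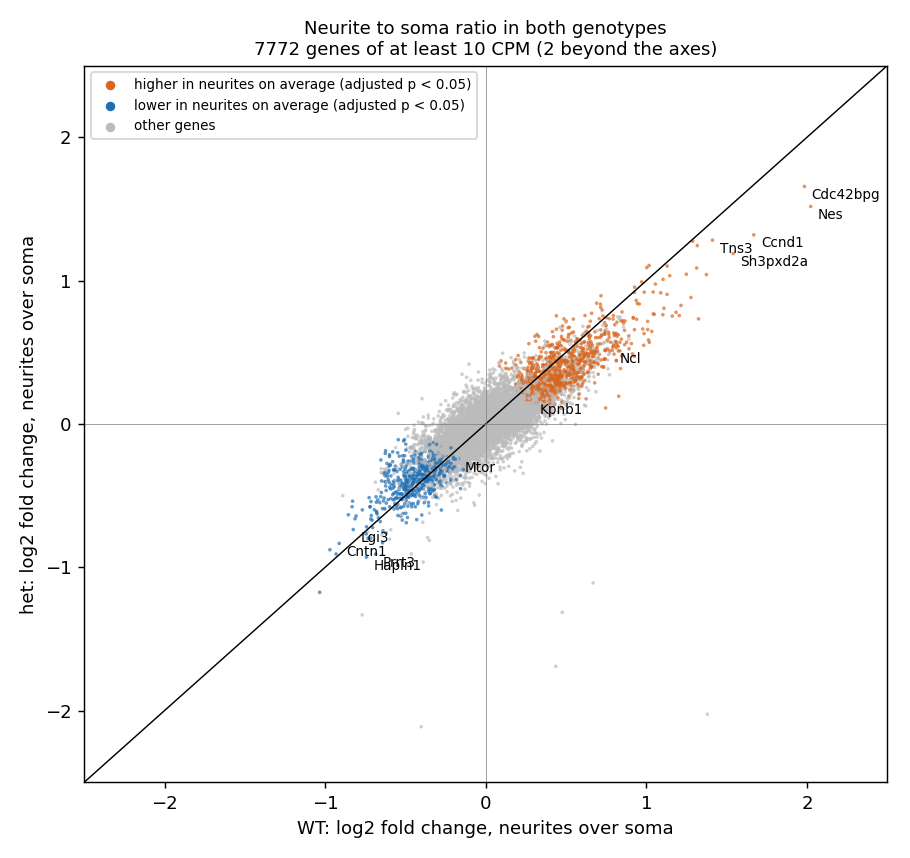
Fitted log2 change from soma to neurites in het (vertical axis) against WT (horizontal axis) for 7772 genes of at least 10 CPM, with the line of equality; genes higher or lower in neurites on average of both genotypes (adjusted p under 0.05) are orange or blue. Genes high in WT neurites are high in het neurites, most of the labelled genes at the upper right lie under the line, and 2 genes lie beyond the axes.

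The genes higher in neurites tended to lie a little nearer to 0 in het. The 1172 neurite-enriched genes had a median log2 ratio of 0.47 in WT and 0.39 in het, and 880 of them (75.09%) had a negative interaction, against 53.2% of all genes. Their median by pair was 0.57, 0.46 and 0.37 in WT and 0.45, 0.35 and 0.32 in het, so the pairs overlapped. Only the unadjusted threshold was reached by any of them: 16 of the 1172 had p under 0.05, beside 1.26% of all genes. In 64 all het pair ratios lay below all WT ones, beside 3.31% of all genes, and in 12 all above, beside 3.05%. The share with a lower ratio in het was 77.46% without WT neurites 2 and het soma 3. The 778 neurite-depleted genes had medians of -0.46 in WT and -0.40 in het, and 494 (63.5%) lay nearer to 0 in het. Their pair medians were -0.52, -0.41 and -0.43 in WT and -0.42, -0.27 and -0.57 in het, which overlapped. That lean depended on 1 library: without het neurites 2 the share nearer to 0 in het was 30.09%. How far choosing genes by their average adds to the shares of both sets was not tested.

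Markers of non-neuronal cells differed between neurites and soma in both directions, depending on the cell type, and their part in the result was not tested. The 10 satellite glia markers, all tested and none at 0 in any library, summed to 1040 to 1280 CPM in WT soma, 1473 to 1616 in WT neurites, 863.1 to 955.2 in het soma and 932.2 to 1269 in het neurites. Their log2 pair ratios were 0.63, 0.20 and 0.50 in WT and 0.50, 0.27 and 0.11 in het. The 6 proliferation markers, of which Mki67 and Top2a are made largely in dividing cells, summed to 614.6 to 835.6 CPM in WT soma and 284.4 to 384.3 CPM in het soma, and to 750.9 to 1283 and 367.7 to 664.4 CPM in the neurites of each. Their pair ratios were 0.91, 0.29 and 0.57 in WT and 0.83, 0.37 and 0.02 in het. So the sums of both marker sets were higher in neurites than in soma in all 6 pairs, and their genotype difference stood in both compartments while the ratios overlapped. The summed CPM of the 13 Schwann cell markers had ratios of -0.14, -0.19 and -0.13 in WT and -0.23, -0.18 and -0.40 in het, whereas the median over the 22 genes of the longer Schwann cell list was above 0 in all 6 pairs, at 0.62, 0.15 and 0.34 in WT and 0.34, 0.21 and 0.15 in het. Ncam1, among the 13 but not the 22, is also in the pan-neuronal list below. The 8 fibroblast markers had ratios of 0.53, -0.17 and 0.49 in WT and 0.71, 0.30 and -0.70 in het. The 9 tested markers of endothelium, pericytes and muscle had ratios of 0.81, 0.44 and 0.36 in WT and 0.59, 0.43 and 0.41 in het, and Pecam1 was not among the tested genes. The 15 neuronal markers were lower in neurites in all 6 pairs, from -0.55 to -0.26. Of 9 macrophage markers 5 were tested, at sums of 88.6 to 386.8 CPM. Their ratios were -0.70, -0.31 and -0.48 in WT and -0.65, -0.26 and -0.41 in het, lower in neurites in all 6 pairs. Aif1, Csf1r, Cx3cr1 and Ptprc were not among the tested genes. In bulk libraries fewer cells of a type and less RNA per cell cannot be told apart.

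The 6 genes with the highest average enrichment in neurites all had a fitted ratio that was lower in het, and none differed beyond the spread. Nes, the intermediate filament protein nestin, was at 104.6, 75.7 and 71.1 CPM in WT soma and 274.0, 503.2 and 245.9 CPM in WT neurites. In het it was at 53.4, 49.0 and 71.1 CPM in soma and 184.1, 182.7 and 129.6 CPM in neurites. Its pair ratios were 1.39, 2.73 and 1.79 in WT and 1.78, 1.90 and 0.87 in het. The WT pair 2 stood above all others and the remaining pairs were mixed, which gave an interaction of -0.51 ± 0.39 (unadjusted p = 0.227).

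The same WT pair 2 was the highest of 6 for the other genes of this group. Cdc42bpg, a kinase that acts downstream of the GTPase Cdc42, had ratios of 1.28, 2.77 and 1.59 in WT and 1.92, 1.79 and 1.23 in het (interaction -0.33 ± 0.41). Ccnd1, which encodes the cell cycle regulator cyclin D1, had ratios of 1.22, 2.20 and 1.46 in WT and 1.29, 1.44 and 1.22 in het (interaction -0.35 ± 0.26). Sh3pxd2a, a scaffold of actin-rich invasive protrusions, had ratios of 0.91, 2.24 and 1.23 in WT and 1.27, 1.44 and 0.83 in het (interaction -0.35 ± 0.33). Rab13, a small GTPase whose mRNA localizes to cell protrusions, and Tns3, a focal adhesion protein, had interactions of -0.02 ± 0.30 and -0.13 ± 0.27. Without the libraries WT neurites 2 and het soma 3 the sign turned for 4 of the 6: the interaction was then 0.21 for Cdc42bpg, 0.07 for Nes, 0.18 for Rab13 and 0.12 for Sh3pxd2a.

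The 6 genes lowest in neurites on average split evenly, 3 with a negative and 3 with a positive interaction. Cntn1, the axonal adhesion molecule contactin 1, was at 37.8, 30.5 and 28.8 CPM in WT soma and 13.6, 22.3 and 15.8 CPM in WT neurites. In het it was at 31.9, 35.8 and 26.9 CPM in soma and 15.3, 22.8 and 14.9 CPM in neurites. Its ratio was 0.531-fold in WT and 0.561-fold in het, with overlapping pairs and an interaction of 0.08 ± 0.28 (unadjusted p = 0.782). Lgi3, a secreted synaptic organizer, and Adam11, an ADAM family protein without protease activity, were at 0.09 ± 0.24 and 0.19 ± 0.24. Hapln1, which links hyaluronan to proteoglycans, was at -0.19 ± 0.26, the collagen gene Col24a1 at -0.22 ± 0.37 and the membrane protein gene Prrt3 at -0.22 ± 0.22.

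**Figure D3:**
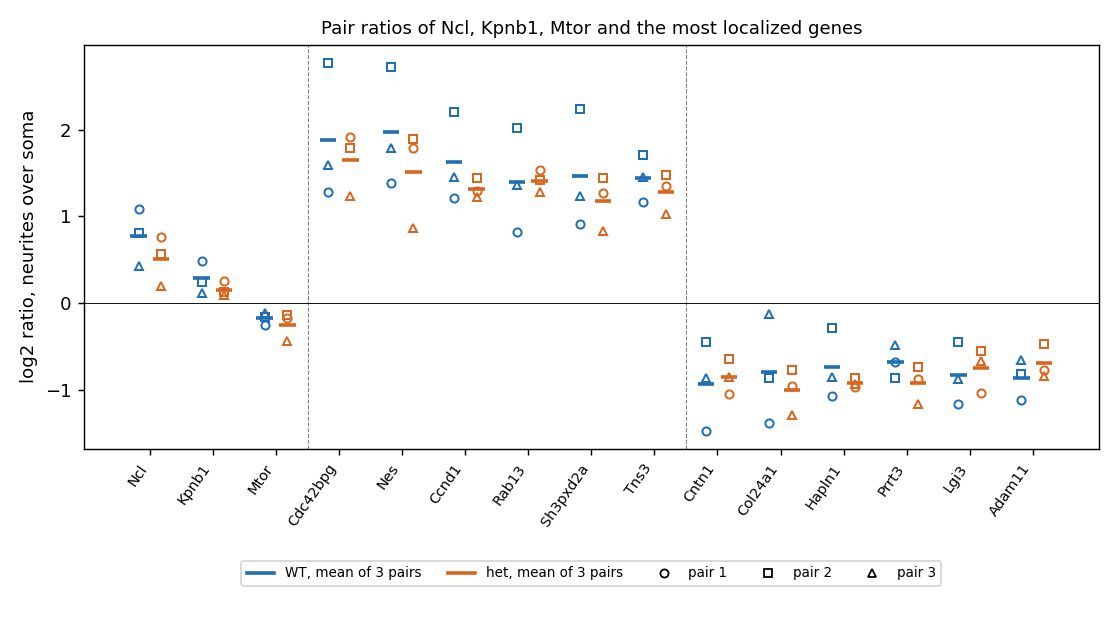
Log2 neurite to soma ratio (vertical axis) in each numbered pair of libraries for Ncl, Kpnb1, Mtor, the 6 most neurite-enriched and the 6 most neurite-depleted genes (horizontal axis), WT in blue and het in orange, with bars at the mean of 3 pairs. WT and het pairs overlap for all 15 genes, and WT pair 2 (blue square) is the highest point for the 6 enriched genes.

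Of the mRNAs known to gather in cell protrusions, 9 of 11 were higher in neurites on average of both genotypes, beside 7.33% of all genes. A negative interaction was found in 10 of 11, beside 53.2% of all genes, and 0 passed. The list median ratio was 1.09 in WT and 0.83 in het, and the median interaction was -0.23 against -0.02 over all genes. By pair the list median was 0.82, 1.41 and 0.89 in WT and 1.00, 1.00 and 0.74 in het, again overlapping, with WT pair 2 the highest. The lean rested on that pair: the median interaction was 0.06 without WT neurites 2, and 0.09 without WT neurites 2 and het soma 3. Ddr2, a collagen receptor, had the smallest p of the list, with ratios of 0.90, 1.64 and 1.07 in WT and 0.98, 1.09 and 0.41 in het (interaction -0.39 ± 0.22, unadjusted p = 0.0962). Trak2, a mitochondrial motor adaptor, had ratios of 1.29 in WT and 1.27 in het, Kif1c, a kinesin, 1.31 and 1.09, and Kank2, a cortical adhesion protein, 1.05 and 0.77. Net1, an exchange factor for RhoA, was the 1 member with a higher ratio in het, at 0.27 ± 0.31.

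The list of 33 mRNAs described in axons held no member that passed, with 14 positive and 19 negative interactions and a median of -0.03, which was 0.12 without WT neurites 2 and 0.07 without WT neurites 2 and het soma 3. The median half-width of the 95% interval in this list was 0.44. Beta-actin (Actb), whose mRNA is carried into growth cones, had log2 ratios of 0.38 in WT and 0.31 in het and an interaction of -0.07 ± 0.21. The growth-associated protein gene Gap43 had ratios of -0.34 and -0.21 (interaction 0.14 ± 0.25). Vimentin (Vim), which travels with injury signals, had 0.74 and 0.71 (interaction -0.03 ± 0.18). Rhoa, the cytoskeletal GTPase, had 0.42 and 0.39 (interaction -0.04 ± 0.16), and Cfl1, which encodes the actin-severing protein cofilin, had 0.25 and 0.19 (interaction -0.06 ± 0.15). The transcription factor mRNAs Stat3 and Atf4 were at 0.10 ± 0.18 and 0.14 ± 0.15. Tmsb10, which encodes an actin monomer binding thymosin, had the smallest p: it was at 20.0, 21.3 and 19.0 CPM in WT soma, 18.5, 19.2 and 18.2 in WT neurites, 21.2, 22.7 and 17.8 in het soma and 23.1, 23.5 and 25.9 in het neurites. All het neurite libraries were above all WT neurite libraries while the soma libraries overlapped (interaction 0.34 ± 0.16, unadjusted p = 0.0565). In 32 of the 33 members the interval lay within 2-fold; the exception, the transcription factor gene Creb1, was at 0.544 CPM.

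The remaining lists were read the same way, by counts and by the median of each pair. In all 29 lists together, 0 of 787 tested genes passed and 8 had an unadjusted p under 0.05, beside the 1.26% over all genes. In 28 of the 29 lists the pair medians of WT and het overlapped. The exception was the list of 28 injury and regeneration genes, which are induced in axotomized sensory neurons. Its median was -0.25, -0.19 and -0.20 in the WT pairs and -0.10, -0.08 and -0.14 in the het pairs, so the list median was nearer to 0 in every het pair. The median interaction was 0.07, with 18 members positive and 10 negative, beside 7484 positive among all 15990 genes. The median interaction was -0.02 without WT soma 2, -0.02 without WT neurites 1 and -0.02 without het neurites 2, so the direction rested on single libraries. Galanin (Gal), a neuropeptide induced by injury, had the smallest p, with ratios of -0.60, -0.39 and -0.20 in WT and 0.02, 0.17 and -0.45 in het (interaction 0.31 ± 0.19, unadjusted p = 0.129). The injury transcription factor genes Atf3 and Sox11 were at 0.22 ± 0.28 and 0.08 ± 0.28, and Jun was at -0.11 ± 0.17. Other lists, picked after their values were seen, also leaned. Of the immediate early genes 15 of 17 had a negative interaction, beside 53.2% of all genes. So had 25 of 33 nuclear transport and dynein and 24 of 33 proliferation genes. The list medians were -0.14, -0.10 and -0.17. With 1 library left out these ran from -0.21 to -0.04, -0.12 to -0.03 and -0.36 to 0.0061. Of 55 histone genes 37 were positive, and of 8 nuclear long RNAs 6, with medians of 0.04 and 0.21.

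Lists of neuronal genes did not share 1 direction. Of 37 pan-neuronal genes 27 had a positive interaction, beside 7484 of all 15990 genes. The median of the 37 was 0.10. With 1 library left out it ran from 0.0012 (without WT neurites 1) to 0.26 (without WT neurites 2), and it was 0.0054 without het neurites 2. The 26 nociceptor genes had a median of 0.06 (16 positive), the 31 sodium and potassium channel genes -0.02 (14 positive) and the 15 genes of large-diameter neurons -0.05 (6 positive). Without WT neurites 2 these medians were 0.07 for the channel genes and 0.13 for the large-diameter genes, and without het neurites 2 that of the nociceptor genes was -0.06. The pan-neuronal median ratio by pair was -0.40, -0.22 and -0.38 in WT and -0.28, -0.14 and -0.26 in het. In 6 members all het pair ratios lay above all WT ones, next to 3.05% of all genes: Isl1, Rbfox3, Stmn2, Uchl1, Stmn3 and Elavl4, named for this after their values were seen. Isl1, a transcription factor of sensory neuron identity, was at 88.4, 80.9 and 73.1 CPM in WT soma, 68.3, 64.0 and 57.8 in WT neurites, 84.7, 76.2 and 81.7 in het soma and 74.2, 74.2 and 77.7 in het neurites. Its 3 het neurite libraries were above its 3 WT neurite libraries and its soma libraries overlapped (interaction 0.25 ± 0.14, unadjusted p = 0.0906). Stmn2, a microtubule regulator of growth cones, had ratios of -0.20 in WT and 0.06 in het (interaction 0.25 ± 0.17). The satellite glia and Schwann cell lists had median interactions of -0.16 each, with 15 of 20 and 19 of 22 members negative, beside 53.2% of all genes. The satellite glia median was 0.0051 without het neurites 3, -0.02 without WT soma 1 and -0.05 without het soma 3, and the Schwann cell median was between -0.27 and -0.07 with 1 library left out, the latter without het neurites 3. In each of the neuronal and both glial lists 0 members passed.

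Ribosomal protein and respiratory chain mRNAs, which are known in axons, had positive median interactions, and 0 members passed. The 79 cytosolic ribosomal protein genes had a median ratio of 0.14 in WT and 0.24 in het. Of their interactions 56 were positive, beside 7484 of all 15990 genes. The median interaction of the 79 was 0.07, and it was -0.01 without het neurites 3 and -0.0080 without WT soma 1. Their pair medians were 0.07, 0.26 and 0.24 in WT and 0.15, 0.20 and 0.42 in het. The 76 nuclear-encoded oxidative phosphorylation genes had pair medians of -0.04, -0.04 and 0.02 in WT and -0.06, 0.02 and 0.34 in het. The interaction was positive in 54 of the 76, beside the same 7484 of 15990 genes. The median interaction of the 76 was 0.09, and it was 0.04 without het neurites 3. In both lists het pair 3 was the highest of the 6 and the other 5 pairs were mixed. Rpl41, a small protein of the large ribosomal subunit, was at 16.7, 19.4 and 17.6 CPM in WT soma, 15.9, 12.6 and 19.8 in WT neurites, 17.9, 18.8 and 15.0 in het soma and 19.3, 19.7 and 26.8 in het neurites (interaction 0.49 ± 0.24, unadjusted p = 0.0573). Ribosomal protein genes have many near-identical processed copies, so their counts are uncertain. Of the 44 nucleolar ribosome biogenesis genes, 30 had a negative interaction, beside 53.2% of all genes, with a median of -0.10 that was 0.01 without WT neurites 1. On average of both genotypes 14 of the 44 were higher in neurites, beside 7.33% of all genes.

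**Figure D4:**
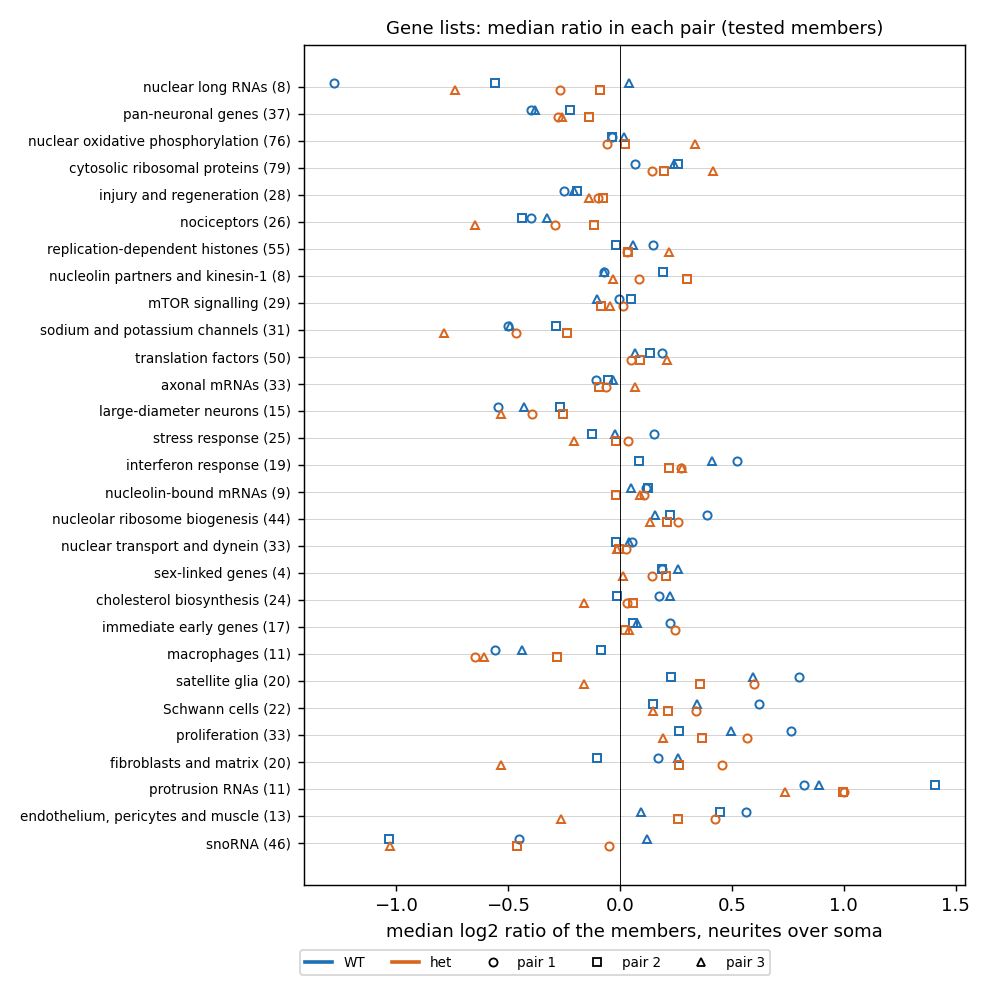
Median log2 neurite to soma ratio of the members (horizontal axis) of each of 29 gene lists (vertical axis, number of tested members in brackets) in the 3 WT pairs (blue) and 3 het pairs (orange), ordered by the median interaction. Blue and orange points overlap in 28 lists; in the injury and regeneration list the het points, from -0.14 to -0.08, lie to the right of the WT points, from -0.25 to -0.19.

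Among genes with at least 10 CPM in the highest group, those nearest to the threshold were described whether or not they passed, and none did. Predicted genes, pseudogenes, clone names and small RNAs were left out. The genes were chosen by this contrast, so how their pairs lie is a description only. Of 16 genes, 8 in each direction, 1 (Kctd1) overlaps another counted gene, Gm6304, on the opposite strand. Interactions ran from 0.30 to 0.62 in the 8 higher in het and from -0.74 to -0.35 in the 8 lower in het. Vsnl1 (chr12:11325242-11436613), a neuronal calcium sensor, had the smallest p of those higher in het. It was at 20.1, 22.5 and 24.1 CPM in WT soma, 15.6, 18.02 and 12.3 in WT neurites, 20.3, 23.9 and 22.0 in het soma and 23.7, 25.0 and 21.0 in het neurites. The soma libraries overlapped and the het neurite libraries were all above the WT ones, an interaction of 0.62 ± 0.20 (unadjusted p = 0.00739, adjusted p = 0.9998 by edgeR).

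Mt3 (chr8:94152607-94154146), a zinc-binding metallothionein of the nervous system, was at 63.0, 64.9 and 57.7 CPM in WT soma and 39.6, 43.3 and 44.3 CPM in WT neurites. In het it was at 75.9, 75.4 and 66.6 CPM in soma and 59.3, 66.5 and 76.1 CPM in neurites, above WT in each compartment. Its ratio was 0.686-fold in WT and 0.927-fold in het (interaction 0.43 ± 0.15, unadjusted p = 0.0112). Cbr1, a carbonyl reductase, was likewise higher in het in both compartments, by 0.24 ± 0.09 in soma and 0.54 ± 0.09 in neurites on the log2 scale (interaction 0.30 ± 0.12). Ythdf2, a reader of N6-methyladenosine that directs mRNA decay, had ratios of -0.20, -0.25 and -0.24 in WT and 0.04, -0.02 and 0.28 in het (interaction 0.34 ± 0.14). The other 4 were Bcdin3d, an RNA methyltransferase (0.53 ± 0.19), Sdhaf3, an assembly factor of succinate dehydrogenase (0.46 ± 0.18), Cmbl, an esterase (0.57 ± 0.23), and Ube2v2, a ubiquitin-conjugating enzyme variant (0.40 ± 0.17). All 8 had a WT ratio below 0, and in 5 the het ratio was above 0.

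Poc1a (chr9:106281061-106350521), a centriole protein, had the smallest p of those lower in het. It was at 7.84, 7.24 and 9.70 CPM in WT soma, 12.2, 10.96 and 13.8 in WT neurites, 8.51, 6.95 and 7.24 in het soma and 7.59, 5.49 and 7.34 in het neurites. It was higher in neurites than in soma in 3 of 3 WT pairs and 1 of 3 het pairs, with fitted ratios of 1.5-fold and 0.896-fold (interaction -0.74 ± 0.24, unadjusted p = 0.00732, adjusted p = 0.9998 by edgeR). Cbx2 (chr11:119022962-119031270), a Polycomb chromatin reader, was at 28.0, 26.7 and 28.6 CPM in WT soma, 32.8, 28.5 and 30.7 in WT neurites, 26.8, 26.2 and 25.9 in het soma and 23.0, 21.8 and 19.5 in het neurites. The libraries within each group lay close together, and the 3 het neurite libraries were the lowest of the 12 (interaction -0.44 ± 0.15, unadjusted p = 0.00862). Sh3d19, an adaptor of membrane proteins, had ratios of 0.51, 0.76 and 0.47 in WT and 0.25, 0.20 and 0.08 in het (interaction -0.40 ± 0.17). Ppp1r12c, a myosin phosphatase subunit, Mogs, the glucosidase that starts N-glycan trimming, and Sumf1, which activates sulfatases, were at -0.49 ± 0.18, -0.43 ± 0.18 and -0.38 ± 0.16. Srfbp1 and Kctd1 were at -0.35 ± 0.13 and -0.45 ± 0.19. All 8 had a WT ratio above 0 and 7 had a het ratio below 0.

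**Figure D5:**
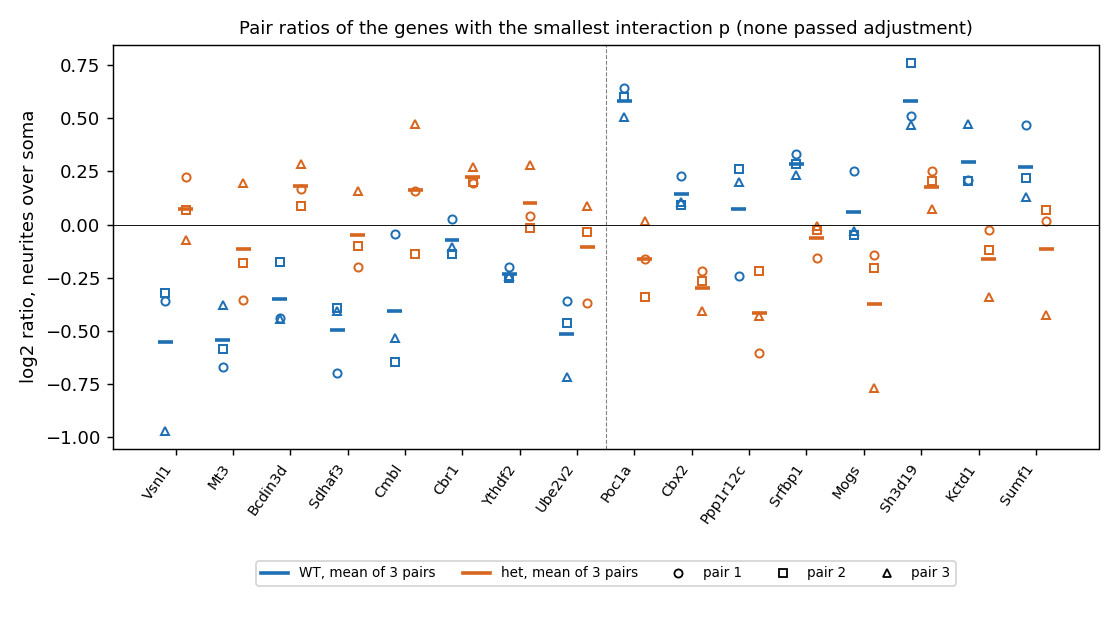
Log2 neurite to soma ratio (vertical axis) in each numbered pair, WT in blue and het in orange, with bars at the mean of 3 pairs. Left of the dashed line are the 8 genes with the smallest interaction p and a higher ratio in het. Right of it are the 8 with a lower ratio in het. Both were taken among genes with at least 10 CPM in the highest group. The genes were chosen by this contrast, the smallest adjusted p is 0.9998, and the pairs of the genotypes do not overlap for 13 of the 16.

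The listed genes with an unadjusted p under 0.05 were Vsnl1, described above, Sqle, and 6 with mean levels under 1 CPM. Sst, the somatostatin neuropeptide of an itch-related class of sensory neurons, was at 1.19, 0.503 and 0.312 CPM in WT soma, 0.280, 0.0673 and 0.350 in WT neurites, 0.634, 0.272 and 0.458 in het soma and 0.690, 1.04 and 1.03 in het neurites (interaction 2.43 ± 0.81, unadjusted p = 0.00865). Its WT and het pair ratios overlapped at WT pair 3. The WT neurite values of Sst were 4, 1 and 9 counts, so that of number 2 lay under the limit of 3 counts. Snord118, a small nucleolar RNA used in ribosomal RNA processing, was at 0.159 to 0.965 CPM in all libraries (interaction -1.98 ± 0.68), and short RNAs of this kind are poorly captured by such libraries. Another small nucleolar RNA, Snord45b, was at -1.98 ± 0.82. The interferon signalling gene Stat2 was at -1.54 ± 0.57, the lysosomal protease gene Ctss at -1.76 ± 0.71 and the histone gene Hist1h2bp at -1.89 ± 0.76, each with a level of at most 1.32 CPM in every library. Sqle, the squalene epoxidase of cholesterol synthesis, was higher, at 5.27, 6.23 and 4.41 CPM in WT soma, 5.32, 5.78 and 7 in WT neurites, 6.03, 5.13 and 5.73 in het soma and 4.83, 4.34 and 3.88 in het neurites (interaction -0.57 ± 0.25, unadjusted p = 0.0399). Of the 24 cholesterol synthesis genes 20 had a negative interaction, beside 53.2% of all genes, with a median of -0.13 (-0.21 to -0.07 with 1 library left out) and pair medians of 0.18, -0.01 and 0.23 in WT and 0.03, 0.06 and -0.16 in het, which overlapped.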

How the data were processed

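RNA-seq of soma and neurites was read from tables of raw counts per Ensembl transcript, which the authors deposited for each compartment. The labels' protocols name a stranded kit with ribosomal RNA removal. The tools listed by the submitters' processing notes are CASAVA 1.8.2 and edgeR, and the build is mm10 (GRCm38). Aligner and counter: not given in the sources used here. A further 24 per-sample columns were not used. Transcripts without a gene name held 0.574% to 0.694% of the counts and were left out.

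Counts were summed per gene, filtered with filterByExpr (627 genes removed) and scaled by TMM. They were fitted with edgeR 4.0.16 (R 4.3.3, robust quasi-likelihood, 1 mean per group over 12 libraries), with Benjamini-Hochberg adjustment over all genes at 0.05. Values are the estimate ± SE, with n = 3 libraries per group. CPM uses TMM-adjusted totals. Pair ratios add 0.5 counts; for 3 pairs against 3 the exact two-sided permutation p cannot go below 0.1, so none is given. The code was tested on simulated data. No 2 libraries were identical.

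Named genes were Ncl, Kpnb1 and Mtor; of genes with at least 10 CPM in the highest group, the 8 with the smallest interaction p in each direction; the 6 highest and 6 lowest on average among localized genes; and the smallest-p member of each list. Lists shown member by member add others. The members and lists were chosen with earlier results of these data known. Alternatives used DESeq2 1.42.0, limma 3.58.1 (voom), other scalings, filters and blocks, transcripts, and libraries left out. Positions are from GENCODE M21.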

Additional observations from a re-analysis of the deposited data

How the results depend on the processing

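The number of genes whose ratio differed between genotypes was 0 under the main settings and under each of the 30 alternatives; unadjusted p under 0.05 was reached by 151 to 508 features, and the lowest adjusted p was 0.7633, without WT pair 3. The labels do not say that equal numbers mark 1 culture. Deviations of same-numbered soma and neurite libraries correlated at 0.278, 0.341 and 0.230 in WT and 0.205, 0.256 and 0.0504 in het, not all over 0.1, although every neurite library correlated best with the soma library of its own number. With a replicate block within genotype or across genotypes the interaction count stayed 0, with 248 and 284 genes at an unadjusted p under 0.05, and the genes localized on average rose from 1950 to 3066 and 3183. Leaving out 1 library or pair gave 799 (without het pair 1) to 2746 (without WT neurites 2). Genes with pair ratios apart numbered 1017 of 15990, and 387 of 7771 at 10 CPM or more. The median interaction was -0.0036 with RLE scaling, 0.0071 with upper-quartile scaling and 0.0029 without WT neurites 2 and het soma 3, and ran from -0.0246 to 0.0050 with 1 library left out. The share of neurite-enriched genes lower in het was 72.02% with DESeq2, 70.59% with upper-quartile scaling, 72.36% with a replicate block within genotype and 68.76% for transcripts, and 59.76% to 85.62% with 1 library or pair left out. The share of neurite-depleted genes nearer to 0 in het was 79.13% with voom quality weights, 67.06% with upper-quartile scaling, 69.16% for transcripts and 85.33% without the 2 libraries; leaving out 1 library or pair gave 29.25% to 80.9%. The slope of het on WT over all genes was 0.4284, 0.6271 at 10 CPM or more, and 0.2588 to 0.4813 with 1 library left out.

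Single genes changed sign in 38 of 1750 comparisons. Without WT neurites 2 and het soma 3 the interaction was 0.211 for Cdc42bpg, 0.0411 for Mtor, 0.0714 for Nes, 0.177 for Rab13 and 0.122 for Sh3pxd2a; Rab13 was at 0.0226 with voom quality weights and 0.0124 with the replicate block within genotype. With 1 library or pair left out the ranges were -0.0133 to 0.31 for Adam11, -0.572 to 0.0014 for Ccnd1, -0.593 to 0.213 for Cdc42bpg, -0.186 to 0.348 for Cntn1, -0.558 to 0.192 for Col24a1, -0.344 to 0.0263 for Hapln1, -0.0071 to 0.303 for Klc2, -0.122 to 0.301 for Lgi3, -0.145 to 0.0222 for Mtor, -0.281 to 0.300 for Rab13, -0.587 to 0.103 for Sh3pxd2a and -0.411 to 0.0095 for Tns3. The cause was not tested. The remaining 1712 comparisons kept their sign. For lists, 45 medians moved by at least the pooled SD of their pair medians and 448 did not. Signs are not counted there: the axonal list had a median of -0.0335, and of 0.0025 without WT soma 1, among the 448. Depth limits the comparison below 1 CPM.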

Other observations

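An interaction beyond 2-fold was found in 4 genes from 10 to 100 CPM and in 3 at 100 CPM and more. Without predicted genes, pseudogenes, clone names and small RNAs, 2 of these were left, both beyond the named genes. In both of the 2, het soma 3 was the highest soma library. They were singled out after their values were seen. Lars2 was at 31.99, 40.6 and 74.2 CPM in WT soma and 47.1, 67.3 and 343.2 CPM in WT neurites, and at 30.3, 220.3 and 2465 CPM in het soma and 53.5, 328.9 and 46.3 CPM in het neurites (interaction -4.31 ± 2.18, unadjusted p = 0.0826 by edgeR). Yam1 was at 2163 CPM in het soma 3 and at 325.9 to 532.6 CPM in the other 5 soma libraries (interaction -1.78 ± 1.16). Neither passed adjustment. Without het soma 3 the interaction was -1.46 for Lars2 and -0.29 for Yam1, and without WT neurites 2 as well it was -1.82 and -0.72.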
